A study of Mus musculus with 4 samples.

Results

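CTCF regions that stand alone in long stretches of the genome without another reproducible CTCF peak were examined in WEHI-231, a cell line from a mouse B cell lymphoma. Peaks of the 2 control lists were merged where they overlapped by at least 1 bp, and merged regions with a peak in both lists were kept on chromosomes 1 to 19, which gave 20259 regions. A region was called isolated when the nearest other kept region on each side lay more than 200000 bp away, edge to edge. This held for 649 of the 20259 regions, and the other 19610 served for comparison. The isolated regions were therefore chosen by the positions of control peaks, and neither their number nor their distances are results. The rule did not use peaks of the knockdown lists, but it was chosen with earlier results of these data known.

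The groups were WEHI-231 cells in which TFII-I was stably knocked down and control WEHI-231 cells, with 2 CTCF ChIP-seq libraries each. The line has the strain background (BALB/c x NZB)F1, and the series design names the knockdown line shTFII-I. The labels do not say how many clones the knockdown line holds, nor whether replicates are separate cultures, so their spread may reflect technical variation alone. How far TFII-I was reduced was not analysed here.

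CTCF binds a long, conserved DNA motif through its zinc fingers. It works as an insulator and, together with cohesin, holds the bases of chromatin loops, where pairs of CTCF sites facing each other mark the boundaries of many contact domains. CTCF sites crowd in gene-rich parts of mammalian genomes and thin out in gene-poor parts, where long intervals may hold a single site. TFII-I, encoded by Gtf2i, is a transcription factor that also binds signalling proteins in B cells, and the title of the series asks about its role in bringing CTCF to gene promoters. At isolated regions no neighbouring reproducible CTCF site lies close by, so their calls in the knockdown lists can be set beside those of regions with near neighbours.

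Peaks were deposited as 1 list per library, in the build mm9, with the authors' score per peak. The lists held 19076 and 15309 peaks for knockdown replicates 1 and 2, and 24467 and 23873 peaks for control replicates 1 and 2. Median scores were 85.5 and 79.1 in the knockdown lists and 111 and 107 in the control lists. Sequencing depth is unknown, and a list with fewer or lower-scoring peaks has fewer calls at any set of weak regions. Shares of regions called in the knockdown lists were for that reason always set beside regions of the same control rank. The genome sequence and annotation of mm9 were not used here, so regions are given by position, without genes or motifs.

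Long gaps took up much of the chromosomes. Of the 20240 gaps between neighbouring kept regions, 2402 were longer than 200000 bp, and these covered 1546 of 2392 Mb, or 64.6% of the length between regions. The median gap over all kept regions was 39110.5 bp. The gap on the nearer side of an isolated region ranged from 200144 to 2837723 bp, with a median of 331517 bp. The longest gap beside an isolated region spanned 9489107 bp, on chromosome 14.

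Isolated regions made up different shares of the kept regions of each chromosome. The share was highest on chromosome 3, with 52 of 1014 regions (5.13%), on chromosome 18, with 29 of 568 (5.11%), and on chromosome 12, with 37 of 768 (4.82%). It was lowest on chromosome 11, with 21 of 1621 regions (1.30%), and on chromosome 19, with 12 of 640 (1.88%). Isolated regions often followed one another. Of the 649, 291 stood between kept regions that were not isolated, while the other 358 formed 145 runs of 2 to 6 consecutive isolated regions.

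Isolated regions had lower scores than other regions in both control lists. Their median score was 102 in control replicate 1 and 102 in control replicate 2, against 123 and 117 for the other regions. A score of at least 100 was reached at 53.0% of isolated regions in control replicate 1 and at 51.6% in control replicate 2, against 66.0% and 63.0% of the other regions. With all kept regions ranked by control score and split evenly into 5 groups, the strongest group held 10.6% of the isolated regions and the 2 weakest groups held 28.0% and 26.0%. These values describe the peaks that chose the regions and were not tested.

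The knockdown lists had peaks at most isolated regions. Knockdown replicate 1 had a peak at 456 of the 649 isolated regions (70.3%, 95% Clopper-Pearson interval 66.6 to 73.8%) and knockdown replicate 2 at 392 (60.4%, 56.5 to 64.2%). Over all 20259 kept regions these shares were 77.6% and 64.1%. Both knockdown lists had a peak at 316 isolated regions (48.7%, 44.8 to 52.6%), where the share over all kept regions was 56.5%. A further 216 isolated regions (33.3%, against 28.7% of all kept regions) had a call in 1 list, 140 of them in knockdown replicate 1 and 76 in knockdown replicate 2. The remaining 117 (18.0%, 15.1 to 21.2%) had no knockdown peak, where the share over all kept regions was 14.8%. These levels depend on the settings. With control peaks scoring at least 100, 820 regions were isolated. Of these, 75.0% were called in both lists, against 73.9% of other regions of equal control rank. With lists of equal length, 762 regions were isolated, and the shares were 65.5% and 64.1%. With a reciprocal overlap of 50%, the shares were 31.0% and 29.2% for the 649 regions. In these settings 4.39%, 9.06% and 30.2% of isolated regions were called in neither list, against 4.24%, 9.01% and 31.0% of the other regions. Intervals cover counting error over regions, which are not replicates of a condition.

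At equal control rank the isolated regions stood close to the other regions. Regions were sorted into 20 bins by their mean rank in the control lists, and the other regions were weighted to the bins of the isolated ones. Of the isolated regions 48.7% were called in both knockdown lists, against 48.3% of the other regions so weighted, a difference of 0.358 percentage points. Of the isolated regions 18.0% were called in neither list, against 19.3% of the others, a difference of -1.29 points. Both weighted values lie inside the counting intervals of the isolated shares. The difference in regions called in both lists was -2.75 and -0.777 points without control replicate 1 and control replicate 2. In these 2 settings regions came from the remaining control list alone, so the isolated regions changed as well, to 662 and 651. With a knockdown list left out, only calls in the remaining list count. The difference was then 3.20 points without knockdown replicate 1 and -1.55 points without knockdown replicate 2, the values of the single lists given below. The direction thus differed between the single knockdown lists. No difference from other regions of equal strength is therefore read from these calls.

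The knockdown replicates differed from each other in direction. In knockdown replicate 1, 70.3% of isolated regions were called against 71.8% of other regions of equal control rank, a difference of -1.55 points. In knockdown replicate 2 the shares were 60.4% and 57.2%, a difference of 3.20 points. The mean difference over both libraries was 0.824 ± 3.35 points (SD, n = 2), smaller than the spread between the replicates. Calls in knockdown replicate 2 alone took 11.7% of isolated regions and 8.87% of other regions of equal rank, while calls in knockdown replicate 1 alone took 21.6% and 23.5%. The share called in knockdown replicate 2 alone was 7.59% and that in knockdown replicate 1 alone was 21.1% over all kept regions.

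**Figure D1:**
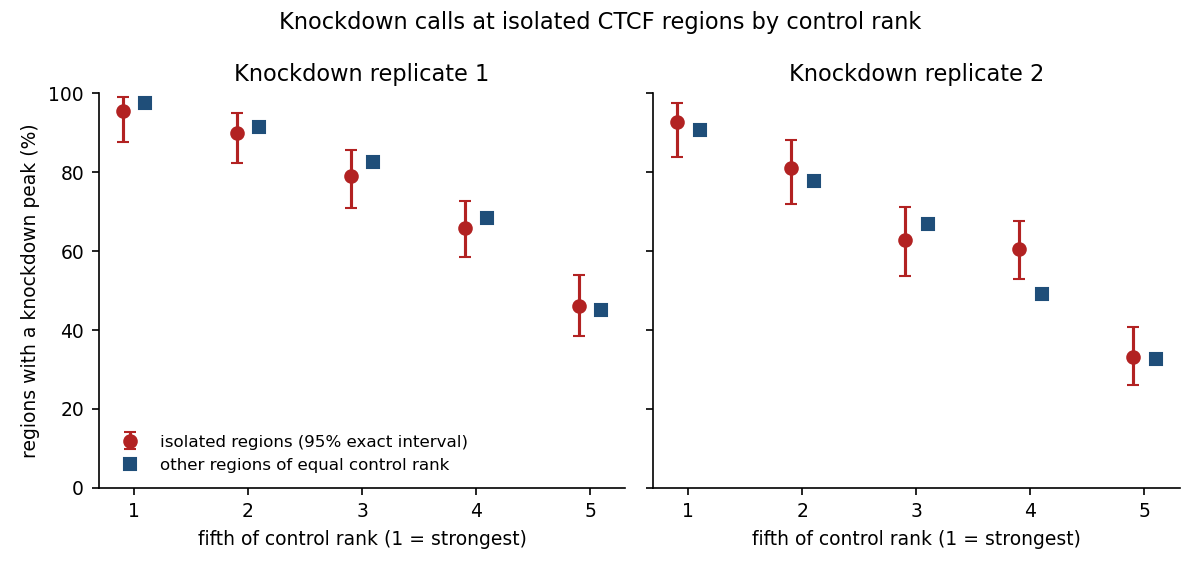
Share of regions with a knockdown peak (%, vertical axis) in 5 groups of control rank (1 is strongest), for isolated regions (circles, with 95% Clopper-Pearson intervals) and other regions weighted to the same bins of control rank (squares), in each knockdown library. In knockdown replicate 1 the isolated share falls along the groups between 95.7% and 46.2%, and the squares lie inside the intervals; in knockdown replicate 2 the square of group 4 lies below the interval.

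The share called was lower in each weaker group of control rank. In the strongest of the 5 groups, 66 of 69 isolated regions (95.7%) were called in knockdown replicate 1 and 64 (92.8%) in knockdown replicate 2, against 97.5% and 90.6% of other regions of equal rank. None of the 69 was without a knockdown peak (95% Clopper-Pearson interval up to 5.21%), against 0.742% of the others. In the weakest group, 78 of 169 (46.2%) were called in replicate 1, 56 (33.1%) in replicate 2 and 70 (41.4%) in neither, against 45.0%, 32.7% and 42.2% of the others. In group 2 the differences from other regions were -1.53 points in replicate 1 and 3.31 points in replicate 2. Group 3 stood lower in both libraries, by -3.66 points in replicate 1 and -4.03 points in replicate 2. Group 4 stood lower in replicate 1, by -2.44 points, and higher in replicate 2, with 60.4% against 49.2%, a difference of 11.2 points. That is the one of the 10 values in which the share of other regions lay outside the counting interval of the isolated share (52.9 to 67.6%).

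Distance to the nearest region was then followed across the 200000 bp boundary. Here each class of distance was set beside the regions of all other classes at equal control rank, so the other regions include isolated ones. For the 7018 regions within 10 kb of another, the difference from other regions of equal rank was 3.52 points in knockdown replicate 1 and -0.727 points in replicate 2. Between 100 and 200 kb the differences were -2.78 points in replicate 1 and 5.31 points in replicate 2, over 1053 regions. The 283 isolated regions with a nearer gap of 200 to 300 kb stood at -3.63 and 0.674 points, and the 210 with 300 to 500 kb at 0.668 and 4.99 points. The 156 isolated regions more than 500 kb from any other stood at -0.549 points in replicate 1 and 5.15 points in replicate 2. The share of other regions lay outside the counting interval of the class between 100 and 200 kb in both libraries, and outside that of the classes within 10 kb and from 10 to 50 kb in replicate 1. It lay inside the interval in all 3 isolated classes, which hold fewer regions and have wider intervals.

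**Figure D2:**
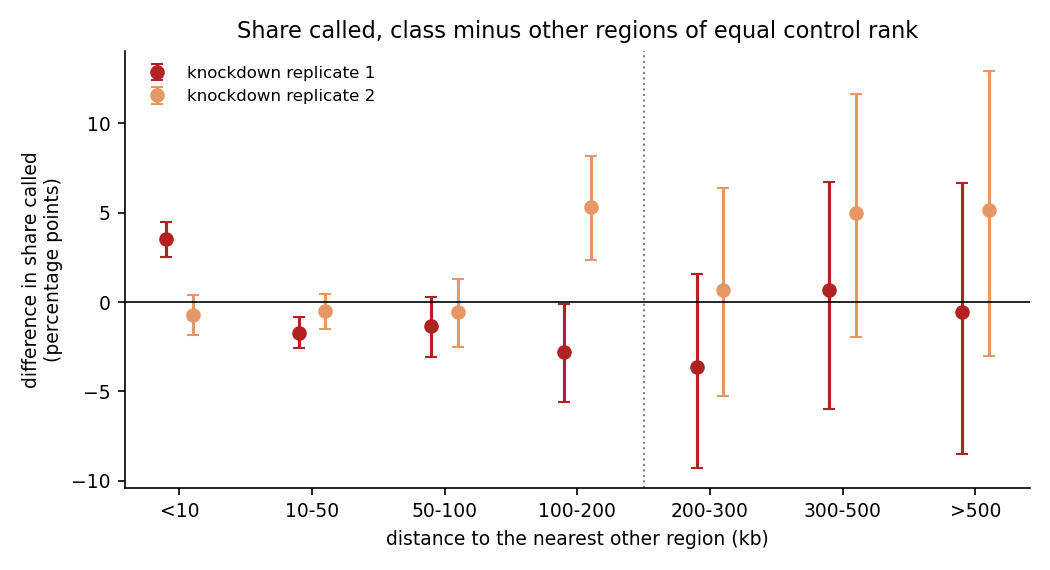
Difference in the share of regions called in each knockdown library (percentage points, class minus regions of all other classes at equal control rank) by distance to the nearest other kept region (kb). Bars give the 95% Clopper-Pearson interval of the class, and the dotted line marks the 200 kb boundary; to its right all 6 intervals cross 0.

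Peak strength in the knockdown lists was compared at the 316 isolated regions called in all 4 libraries. The mean percentile of their peaks within the list, where 100 is the highest score, was 52.7 and 54.9 in knockdown replicates 1 and 2 and 58.3 and 57.7 in control replicates 1 and 2. Group means were 53.8 ± 1.53 in the knockdown lists and 58.0 ± 0.421 in the control lists (SD, n = 2 each), a difference of -4.20 points. Both knockdown values lay below both control values, and the two-sided exact permutation test gave p = 0.3333, the smallest value that 2 libraries against 2 allow. The difference was -3.02 points without knockdown replicate 1 and -5.87 points without knockdown replicate 2. With a control list left out, regions were chosen from the remaining control list alone, so the set of regions changed. The difference was then -1.03 points without control replicate 1 (662 isolated regions), where the separation was lost. It was -3.67 points without control replicate 2 (651 isolated regions). The direction depends on the scale. When percentiles were taken only among the regions called in all 4 libraries, the difference was 5.59 points. With every list limited to the length of the shortest it was 4.13 points, but this setting also changed the isolated regions, which then numbered 762.

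Other regions of equal control rank were shifted in the same direction. In the complete lists, other regions of equal rank had a mean percentile that was lower in the knockdown lists, with a knockdown minus control value of -5.12 points, so that the isolated regions stood 0.924 points above them. In knockdown replicate 1 the isolated regions had -5.29 points against -3.32 points for the other regions, a difference of -1.96. In knockdown replicate 2 they had -3.12 points against -6.93 points, a difference of 3.81. The libraries thus differed in direction here as they did for the calls. The difference was 2.94 points without knockdown replicate 1 and -2.40 points without knockdown replicate 2. It was 0.874 points without control replicate 1 and -0.0657 points without control replicate 2, in the changed sets of 662 and 651 isolated regions.

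Control peaks had lower mean widths at isolated regions than at other regions of equal control rank, by more than knockdown peaks did. Without regions over 1 kb, the mean peak width at the 311 isolated regions called in all 4 libraries was 335 and 446 bp in knockdown replicates 1 and 2, against 338 and 454 bp at other regions of equal control rank, differences of -3.69 and -7.14 bp. In control replicates 1 and 2 it was 470.2 and 509 bp against 508 and 533 bp, differences of -38.1 and -24.2 bp. These widths were not tested. Peak centres lay at similar distances between and within groups. At isolated regions the median distance between the centres of a knockdown and a control peak was 39.0 to 58.5 bp over the 4 pairs of lists, and at other regions 42.5 to 53.5 bp. Between the 2 knockdown lists it was 43.75 bp at isolated regions and 47.5 bp at other regions, and between the 2 control lists 50.25 bp at isolated regions and 48.5 bp at other regions.

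Scores at isolated regions were less alike between the control replicates than at other regions. Across the 316 isolated regions, Spearman's rho between the scores of control replicates 1 and 2 was 0.494, against 0.601 across 11134 other regions. Between knockdown replicates 1 and 2 it was 0.403 at isolated regions and 0.362 at other regions. These values are across regions that share a library and were not matched for control rank, and they are given as a description.

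The isolated regions with the highest control rank were called in every list. The first lay on chromosome 12 from 68160008 to 68160974, with scores of 1766 and 1193 in the knockdown lists and of 1801 and 1572 in the control lists. It stood at ranks 10 and 11 of the knockdown lists and at rank 9 of both control lists. The second, also on chromosome 12, from 75904604 to 75905770, scored 1662 and 1248 in the knockdown lists and 1302 and 1354 in the control lists.

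The next 3 lay on chromosomes 3 and 17. Chromosome 3 from 56379125 to 56379781 scored 1135 and 668 in the knockdown lists, against 921 and 986 in the controls, and chromosome 3 from 8244679 to 8246729 scored 1138 and 592 against 778 and 796. Chromosome 17 from 39979855 to 39985817 scored 626 and 249 in the knockdown lists and 621 and 536 in the control lists. Scores are not on one scale across lists, so these regions were compared by rank, which does not allow for the unequal lengths of the lists. The second region on chromosome 12 stood at ranks 12 and 10 in the knockdown lists and 12 and 10 in the controls, and the first on chromosome 3 at ranks 21 and 25 against 23 and 17. The second on chromosome 3 stood at ranks 20 and 29 against 44 and 30, and chromosome 17 at ranks 38 and 171 against 94 and 137. As plain ranks, both knockdown values were better than both control values only for the second region on chromosome 3 among these 5. Its rank of 29 was in a list of 15309 peaks, against control lists of 24467 and 23873. As a share of list length, its rank in knockdown replicate 2 was therefore not better than those of the controls.

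The remaining 3 of the 8 strongest had knockdown scores of 212 to 300.5. Chromosome 12 from 32652254 to 32653040 scored 288 and 212 against 477 and 520.3. Chromosome 2 from 109744097 to 109744946 scored 300.5 and 240.5 against 504 and 444. Chromosome 16 from 14701206 to 14702020 scored 271 and 300.2 against 446 and 406. Their ranks differed in direction. The region on chromosome 12 stood at ranks 225 and 306 in the knockdown lists and 218 and 143.5 in the controls, weaker than both control ranks. Chromosome 2 stood at ranks 195 and 186 in the knockdown lists and 187 and 220 in the controls. Chromosome 16 stood at ranks 267 and 98 in the knockdown lists and 254 and 267 in the controls. Plain ranks of knockdown and control thus overlapped at both. As a share of list length they overlapped on chromosome 16 alone, and on chromosome 2 both knockdown ranks were weaker than both control ranks.

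Of the 649 isolated regions, 5 were wider than 1 kb, and 3 of these are among the 8 strongest. The region on chromosome 17 spanned 5963 bp, where the median width of isolated regions was 547 bp. Its peak was 5900 and 5906 bp wide in the knockdown lists and 5884 and 5963 bp in the control lists. The second region on chromosome 3 spanned 2051 bp, and the second on chromosome 12 spanned 1167 bp. A region on chromosome 12 from 57737675 to 57738691 spanned 1017 bp and scored 120.2 and 78.6 in the knockdown lists and 139 and 108 in the control lists. The last, on chromosome 5 from 80242214 to 80243442, was 1229 bp wide and is the fifth most isolated region of all. Its scores were 409 and 278 in the knockdown libraries and 303 and 316 in the controls. It stood at ranks 91 and 119 of the knockdown lists against 617 and 480 of the control lists. Repeat-like regions were not filtered out, and their part in these scores was not tested.

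The most isolated region was an ordinary CTCF peak of middle rank. It lay on chromosome 3 from 44716546 to 44716928, with 2837723 bp to the kept region before it and 3933178 bp to the one after it. Its scores were 80.2 and 63.3 in knockdown replicates 1 and 2 and 117 and 117 in the control replicates. The nearest other peak of knockdown replicate 1 was 2837890 bp away. Control replicate 2 had a nearer peak, 0.407 Mb from the centre of the region, with a score of 65.65.

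The next most isolated regions had mixed calls. The region on chromosome 14 from 97353644 to 97354089, beside the gap of 9489107 bp, scored 89.0 and 81.4 in the knockdown lists and 123 and 84.1 in the control lists. Regions on chromosome 1 from 149070303 to 149070810 and on chromosome 4 from 77204630 to 77205175 had no knockdown peak, with control scores of 124 and 177 for the first and of 65.6 and 108 for the second. Regions on chromosome 16 from 81330614 to 81331168 and on chromosome 2 from 88196284 to 88196968 were called in knockdown replicate 1 alone, with scores of 116 and 50.3. Chromosome 3 from 72850060 to 72850632 completed the 8 and scored 124 and 114 in the knockdown lists and 156 and 229 in the control lists. Of these 8 regions, 4 were called in both knockdown lists, 2 in 1 list and 2 in neither.

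**Figure D3:**
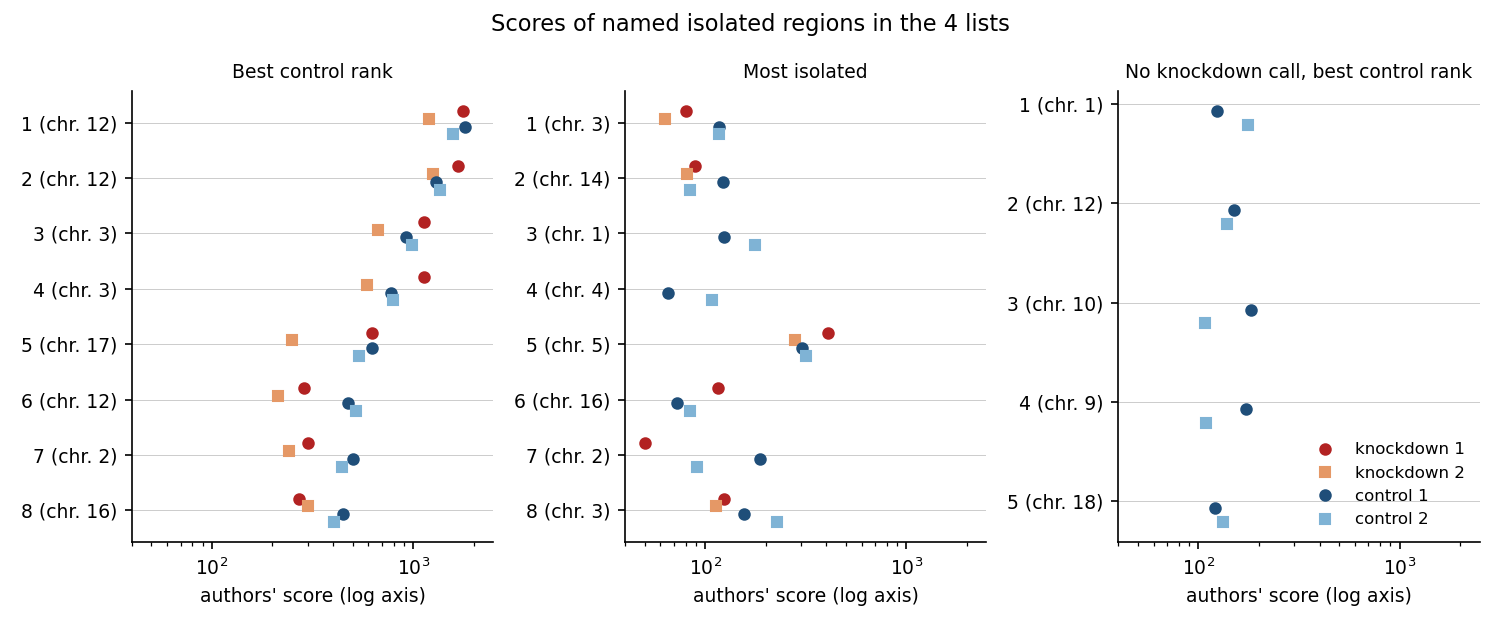
The authors' score (log axis) in each library for the 8 isolated regions with the best control rank, the 8 most isolated regions and the 5 regions without a knockdown peak that had the best control rank, each row labelled with its order and chromosome. Knockdown libraries are in red and orange and control libraries in blue; a missing point means no peak in that list, and scores are comparable only within a list.

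Isolated regions without any knockdown peak were more frequent in the weaker groups of control rank, with 4 in group 2, 13 in group 3, 30 in group 4 and 70 in group 5. The 5 with the best control rank began with the region on chromosome 1 named above, which was also the third most isolated. Its nearest peak lay at a distance of 2534879 bp in knockdown replicate 1 and of 2534755 bp in knockdown replicate 2. Control replicate 2 had a nearer peak, 0.0823 Mb from the centre of the region, with a score of 55.75. Control scores were 150.4 and 139 on chromosome 12 from 89222460 to 89222806, and 182 and 108 on chromosome 10 from 45093064 to 45093515. They were 172 and 109 on chromosome 9 from 73405436 to 73406085, and 121 and 132 on chromosome 18 from 15298710 to 15299101. The best of the 5 stood at ranks 10221 and 3875 of the control lists, and the 5 had mean control percentiles of 60.7 to 71.0.

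The 117 uncalled regions had no knockdown peak displaced to their edge. None had a peak of either knockdown list within 1 kb, 3 had one within 10 kb and 28 had one within 200 kb. The nearest lay 1418 bp away, and the median distance to the nearest knockdown peak was 281471 bp. The region on chromosome 10 is among the 3, with a peak of knockdown replicate 2 at 8159 bp.

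The kept regions next to isolated ones were followed as well. Of the 231 neighbours of the uncalled isolated regions, 48.5% were called in both knockdown lists and 22.1% in neither. Of the 425 neighbours of isolated regions called in a single list, 51.3% were called in both and 19.1% in neither. Of the 612 neighbours of isolated regions called in both lists, 60.5% were called in both and 13.4% in neither. Over all kept regions these shares were 56.5% and 14.8%. The median control percentile of these sets of neighbours was 47.2, 47.2 and 49.0, in the order given. The shares were not matched for control rank. The sets share some regions and hold isolated regions themselves, and no test was made.

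**Figure D4:**
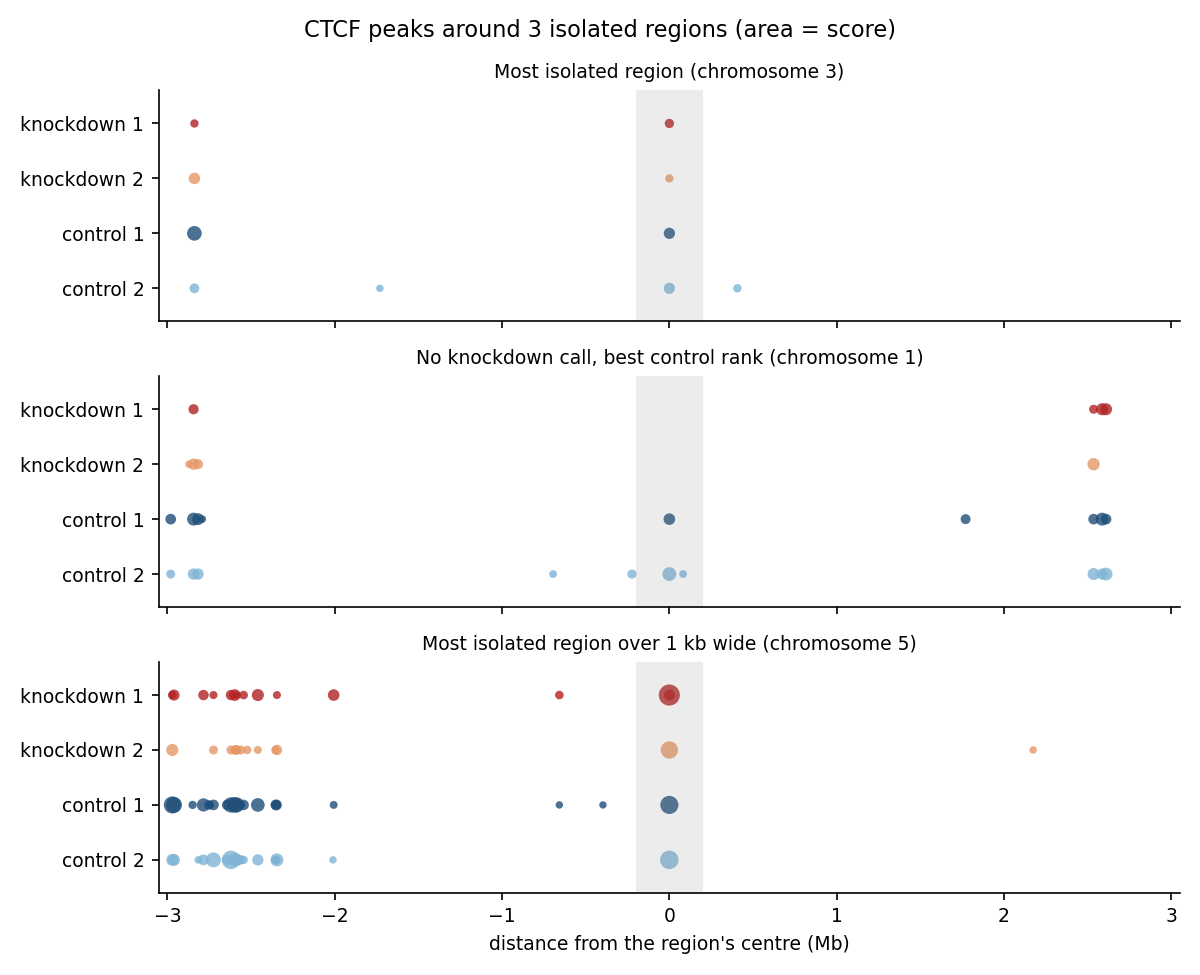
Peaks of each list (rows) by distance from the centre of 3 isolated regions (Mb, up to 3 Mb on each side), with the area of a point proportional to the authors' score and the 200 kb flanks shaded. On chromosome 3 the nearest peak called in all lists lies 2.84 Mb away, on chromosome 1 the central peak is in the control lists alone, and on chromosome 5 the central region has the highest score within 3 Mb in all 4 lists.

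Runs of isolated regions showed how calls varied within one stretch. The run with the most members, on chromosome 4 from 74209349 to 81830340, held 6 isolated regions over 7.62 Mb, of which 2 were called in both knockdown lists, 2 in 1 list and 2 in neither. Its control scores ran between 60.2 and 167 in replicate 1 and between 87.1 and 138 in replicate 2. On chromosome 3 from 41403643 to 49881442, 5 isolated regions over 8.48 Mb included the most isolated region, and 2 were called in both knockdown lists and 3 in 1 list. On chromosome 1 from 100246754 to 107259767, 5 isolated regions over 7.01 Mb held 3 called in both lists, 1 in 1 list and 1 in neither. On that stretch of chromosome 1, the region from 106882649 to 106883261 had the highest scores of the run in all lists, with 163 and 143 in the knockdown lists and 215 and 189 in the controls. Of the 4 runs with 5 members, the remaining 2 spanned less, with 5.57 Mb on chromosome 12 from 93541495 to 99111147 and 3.94 Mb on chromosome 13 from 25654505 to 29593451. In each of these, 4 regions were called in both knockdown lists and 1 in 1 list.

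The flanks of isolated regions held scattered weak peaks. The 200 kb on each side of the 649 regions covered 252 Mb after overlapping flanks were joined, and by the rule held no peak called in both control lists. Knockdown replicates 1 and 2 had 153 and 110 peaks there and control replicates 1 and 2 had 187 and 184. This came to 0.523 ± 0.121 peaks per Mb in the knockdown lists and 0.737 ± 0.00843 in the control lists (SD, n = 2 each). As a share of each list's peaks outside the kept regions, the flank peaks made up 5.80% and 6.004% in the knockdown lists and 5.39% and 6.36% in the control lists, which overlap. The lists differ in length, and the control counts leave out by construction whatever both controls shared. Median scores were 63.6 and 62.1 in the knockdown flank peaks and 64.3 and 68.0 in the control flank peaks, near the lowest score of 50.

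Flank peaks were shared between the knockdown lists about as often as other peaks outside the kept regions. Of the 153 flank peaks of replicate 1, 41 (26.8%) were in replicate 2, against 24.3% of all 2639 of its peaks outside kept regions. The same 41 were 37.3% of the 110 flank peaks of replicate 2, against 34.8% of all 1832. A peak of a control list overlapped 89 flank peaks of replicate 1 (58.2%, against 61.6%) and 80 of replicate 2 (72.7%, against 62.6%). Peaks in both knockdown lists and in neither control numbered 8, or 5.23% and 7.27% of the flank peaks, against 4.70% and 6.71% of all peaks outside kept regions. Among these 8, the one with the highest score in replicate 1 lay on chromosome 6 from 64635012 to 64635429, 34629 bp from its isolated region, and scored 124 and 64.4. The closest lay on chromosome 5 from 126321395 to 126321708, 5435 bp from its isolated region, and scored 57.6 and 105. Both were chosen after their values were seen.

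For 351 of the 649 isolated regions (54.1%) the flanks held no other peak of any list. Of these 351, 70.1% were called in knockdown replicate 1 and 57.3% in replicate 2, against 70.5% and 64.1% of the 298 with another peak in the flanks. Their median control percentiles were 42.2 and 47.5, and these shares were not matched for control rank.

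The boundary of 200000 bp cut through a continuous range of distances. Just inside it were chromosome 10 from 83482918 to 83483521 at 200144 bp, chromosome 15 from 101603064 to 101603677 at 200270 bp and chromosome 14 from 69112074 to 69112662 at 200939 bp. Just outside were chromosome 3 from 36739866 to 36740400 at 199761 bp, chromosome 2 from 160203855 to 160204557 at 199712 bp and chromosome 16 from 76899293 to 76899931 at 199344 bp. Of the first 3, 2 were called in both knockdown lists and 1 in replicate 1 alone, and so were 2 and 1 of the second 3.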

How the data were processed

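CTCF ChIP-seq peak lists of 4 libraries were used, 2 from TFII-I knockdown and 2 from control WEHI-231 cells. BWA, HOMER and the build mm9 are named without roles, per the submitters' processing notes, and peak names carry the word MACS, per the files. For caller version, parameters and input, nothing is given in the sources used here. The score in each list is the authors' deposited value per peak and is not scaled between lists, so it was used only to describe and rank peaks within a list. Positions are start and end in bp as deposited, read as counted from 1.

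Peaks were merged with an overlap of 1 bp, and the highest score was taken where a region held several peaks of a list. Control rank was the mean of a region's ranks in both control lists. Other regions were weighted to the isolated ones over 20 bins of control rank. No test was made over regions, and library values were compared with exact permutation. The named regions are the 8 isolated regions with the best control rank, the 8 most isolated, the 5 with the best control rank among those without a knockdown peak, 3 on each side of the boundary, the 3 runs with the most members (ties by span) and all over 1 kb. The isolated regions and these rules were chosen with earlier results of these data known. Settings tried are given in the closing section. Python 3.11.15, numpy 2.4.6, pandas 2.3.3, scipy 1.17.1 and matplotlib 3.10.9 were used, and the scripts were tested on simulated data. Same-numbered libraries did not deviate together (Pearson's r of replicate differences 0.0145 over 11450 regions).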

Additional observations from a re-analysis of the deposited data

How the results depend on the processing

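The number of isolated regions was 1702 with a boundary of 100 kb and 156 with 500 kb. It was 352 when any peak of the 4 lists counted as a neighbour, 1 of them the first or last kept region of its chromosome, by construction. With control peaks scoring at least 100 it was 820, and with lists limited to the shortest length 762. Without control replicate 1 or control replicate 2, regions came from the remaining control list alone, and 662 and 651 were isolated. These settings thus changed the set of regions too. The difference in list percentile, knockdown minus control, was 4.13 points with lists limited to the shortest length and 5.59 points with percentiles among regions called in all 4 libraries (chosen after seeing the data), against -4.20 points; it was -11.8 points with control peaks scoring at least 100, -5.99 with 100 kb, -1.61 with 500 kb, -1.70 with neighbours from any list, and -5.87 to -1.03 when a library was left out. The cause was not tested. The difference in regions called in neither knockdown list was -1.29 points from complete data. With a library left out it ranged from -3.20 (without knockdown replicate 1) to 2.29 points (without control replicate 1). Without knockdown replicate 1 it counts regions not called in knockdown replicate 2, so -3.20 points is that list's difference with its sign reversed. Flank peaks of the knockdown lists with a score of at least 100 numbered 0.0378 per Mb. Taking replicate numbers as a replicate block left the percentile difference at -4.20 points (exact sign-flip p = 0.5, the smallest for 2 pairs). Other settings, a reciprocal overlap of 50%, 50 bins of control rank and leaving out regions over 1 kb, moved the call and percentile differences by less than counting error or replicate spread. Sequencing depth is unknown, which limits what an absent call at a weak region shows.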
